A study of Mus musculus with 4 samples.

Results

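Long antisense miRNA alignments were chimeric AGO2-CLASH reads in which at least 16 nt of the read matched the reverse complement of a mature miRNA. A read was a member when the start of its listed miRNA alignment lay after the end and the alignment spanned 16 nt or more, with the target on either strand. The members were 738 distinct reads with a summed deposited count of 852, of 29067 distinct reads and 36318 reads in all, which is 2.35% of the reads. They listed 246 miRNAs and 609 target genes. The members were chosen by the listed miRNA alignment coordinates, so the orientation and the length of the miRNA alignment are a description.

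The reads came from primary mouse mesangial cells (MMC), the contractile matrix-producing cells of the glomerulus, grown in RPMI medium with serum and given no treatment. WT cells and miR-379KO cells, in which CRISPR-Cas9 had removed the miR-379 sequence, both had the C57BL/6J background, and each genotype had 2 libraries, A and B. AGO2 was immunoprecipitated after UV cross-linking and the RNA ends within the complex were joined with T4 RNA ligase. The labels do not tie a library to an animal, so p-values here measure the spread between libraries, which may be technical. Libraries A and B held 16324 and 7192 chimeric reads for WT, and 6326 and 6476 for miR-379KO. miR-379, the deleted miRNA, was listed in 3 and 1 reads of WT, 0 and 0 of miR-379KO, and in 0 long antisense reads. The counts of 0 in the miR-379KO libraries allow up to 4.74 and 4.63 reads per 10000 at these depths. Of 10 mesangial marker genes, 8 were listed as targets with 824 reads in all, and Itga8 and Gata3 were not listed. Fn1 had 483 of these reads, Thbs1 161, Acta2 86, Col4a1 57, Vim 18, Tagln 13, Pdgfrb 4 and Des 2. Of 4 podocyte markers, 2 had 3 reads, and the endothelial, tubule and macrophage markers had 0.

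In a miRNA chimera, the short strand held by AGO2 is ligated to the RNA it pairs with, and the miRNA part of the read carries the mature sequence. A read that carries the complement of a mature miRNA does not hold that strand itself. Complements of miRNAs occur in the genome wherever a miRNA lies in a repeat. B1 and B2 are short interspersed repeats of rodents that are copied into introns in both orientations. miR-1195, miR-706, miR-709 and miR-1946a resemble B1, miR-3470b lies in the other orientation of B1, and miR-3473b resembles the start of B2.

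The sequences of the leading miRNAs are shown first, because the antisense segments below are read against them. They are the RefSeq mature forms for GRCm38, written 5′ to 3′ with the seed (bases 2 to 8) in capitals, and no pair of them shared a seed. RefSeq entries for miR-1946a and miR-709 were not used here.
miR-3473b: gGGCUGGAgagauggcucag
miR-1195: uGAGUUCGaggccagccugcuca
miR-706: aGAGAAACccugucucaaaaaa
miR-5131: cGGCGCCCcacggagccccgagc
miR-3470b: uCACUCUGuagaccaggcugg
miR-207: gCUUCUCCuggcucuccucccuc
miR-681: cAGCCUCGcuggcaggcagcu
miR-5126: gCGGGCGGggccgggggcgggg

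The most frequent antisense segments, as they stood in the reads 5′ to 3′, are shown next because the values below turn on them. They are the 6 with the most reads. Capitals mark bases that differ from the exact complement of the miRNA.
miR-5131 segment: ctcggggcCcGgtgggg
miR-3473b segment: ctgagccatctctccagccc
miR-706 segment: gagacagggtttctct
miR-681 segment: tgcctgccGgcgaggctg
miR-207 segment: ggaggagaAccaggaga
miR-1195 segment: ggctggcctGgaactca

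Differences are given with the miRNA base, its position from the 5′ end of the miRNA and the base in the reverse complement of the segment. The miR-5131 segment differed by G12C and A14G, the miR-681 segment by T10C, the miR-207 segment by C12T and the miR-1195 segment by G8C. The miR-3473b and miR-706 segments had no difference.

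Antisense alignments were short. The median length was 17 nt for long antisense and 21 nt for long sense distinct reads, and 16.1% against 62.4% reached 20 nt. The longest antisense alignment was 23 nt. Just outside the minimum, 580 antisense reads were aligned over 15 nt, and 25.99% of the distinct ones matched without mismatch or gap. Just inside it, 254 were aligned over 16 nt, and 20.6% of the distinct ones did.

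**Figure D1:**
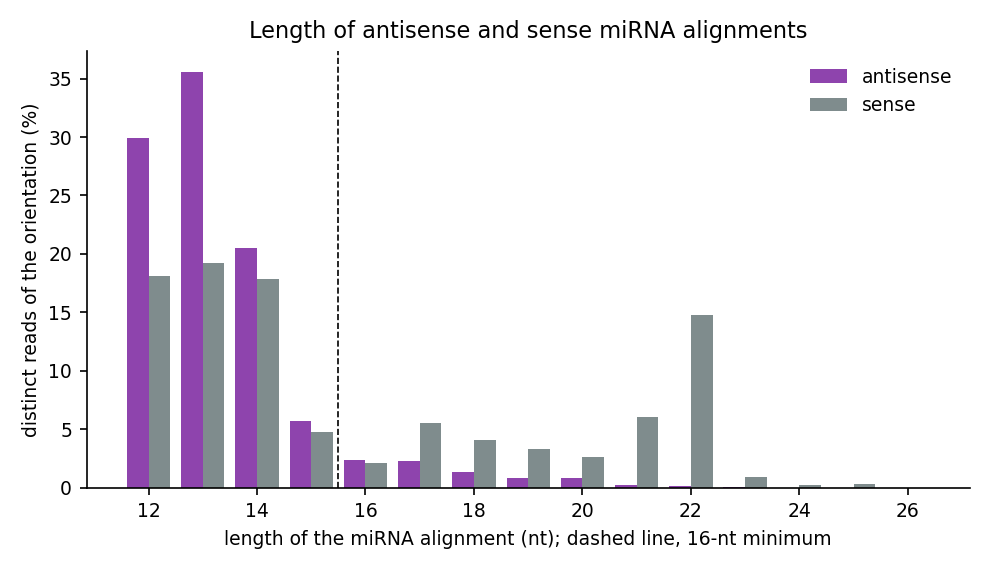
Length of the miRNA alignment in nt (x axis) against the percent of distinct reads of each orientation (y axis), all libraries together, with the 16-nt minimum as a dashed line. Antisense alignments held at most 2.41% of distinct reads at each length from 16 nt, and sense alignments had a second peak at 22 nt.

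Long antisense reads were rare in each library and did not differ between genotypes beyond the spread. In WT, the share was 294 reads per 10000 chimeric reads in library A (exact binomial 95% interval 269 to 321) and 172 in library B (144 to 205). In miR-379KO, it was 202 in library A (169 to 240) and 185 in library B (154 to 221). These intervals cover counting error only, since reads without molecular identifiers are not independent molecules. WT A was above the other 3 libraries, which lay close together, and the genotypes overlapped. The mean was 233 ± 86.0 per 10000 (SD, n = 2) in WT and 194 ± 12.05 in miR-379KO (exact two-sided permutation test, p = 1, smallest possible 0.33). Without WT A the difference between WT and miR-379KO was -21.4 per 10000, so the direction rests on that library. Of the reads with an alignment of 16 nt or more, 9.92% and 4.67% were antisense in the WT libraries and 5.69% and 5.55% in the miR-379KO libraries.

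Few sequences recurred. Of the members, 87.8% had a deposited count of 1 and the highest count was 4. The 731 distinct sequences included 5 that were found in 2 or more libraries, 0.68%, beside 2.21% of the 28227 sequences of the whole series. Only 2 reads also had a long sense alignment.

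Repeat-like miRNAs led the list. miR-3473b had 54 and 17 long antisense reads in the A and B libraries of WT and 10 and 14 in those of miR-379KO, and values below follow this order. miR-1195 had 44, 13, 19 and 6, and miR-706 had 38, 7, 13 and 10. With a minimum alignment of 20 nt, miR-3473b held 43.9% of the class in place of 11.2%, and miR-1195 held 0 in place of 9.62%. With a minimum of 18 nt, miR-5131 held 0 in place of 4.23%, and it held 7.53% without WT A and 2.73% without miR-379KO B. These 3 miRNAs were antisense in all 4 libraries, with the most reads in WT A, the deepest library. Per 10000 chimeric reads, miR-3473b ranged from 15.8 to 33.1, miR-1195 from 9.26 to 30.03 and miR-706 from 9.73 to 23.3, with overlapping genotypes. The 10 miRNAs with the most reads held 389 reads, 45.7% of the class, whereas all but 119 of the 246 miRNAs had 1 read.

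The leading miRNAs differed in how often they were also read in sense. miR-706 had 68 antisense and 60 long sense reads. miR-3473b had 95 and 1092, miR-1195 82 and 752, miR-3470b 23 and 46, miR-1946a 19 and 41, miR-709 19 and 411, and miR-5126 15 and 611. miR-5131, miR-207 and miR-681 had 36, 16 and 16 antisense reads and no long sense read. Of the 246 miRNAs, 119 also had a long sense read, and 1 of the 58 miRNAs with at least 10 long sense reads, miR-706, was antisense in over 50% of its long reads.

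Many miRNAs were read in sense alone. Of the 619 miRNAs with a long alignment, 373, or 60.3%, had 0 antisense reads. Among the 11 with at least 200 long sense reads, 6 had 0: miR-690, miR-2137, miR-149-3p, let-7b-5p, let-7c-5p and miR-145a-5p. The let-7 and miR-98 family, which restrains growth-related mRNAs, had 0 antisense and 1482 sense reads. Kidney fibrosis miRNAs, a list that holds the miR-29 and miR-200 families and miR-21a, had 6 and 465. The Sfmbt2-intron repeat families miR-297, miR-466, miR-467 and miR-669 had 45 and 66, so 40.5% of their long reads were antisense, with 37 of the 45 in WT A. The B1-related list, of which miR-1195, miR-3470a and miR-3470b had long reads and which does not hold miR-706, miR-709 or miR-1946a, had 115 and 813, or 12.4% antisense, beside 7.16% over all miRNAs. miRNAs whose gene overlaps another miRNA gene on the opposite strand had 6 and 28, and those opposite Rtl1 had 0 and 1. The lists were chosen with earlier results known and these percentages are given without a test.

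**Figure D2:**
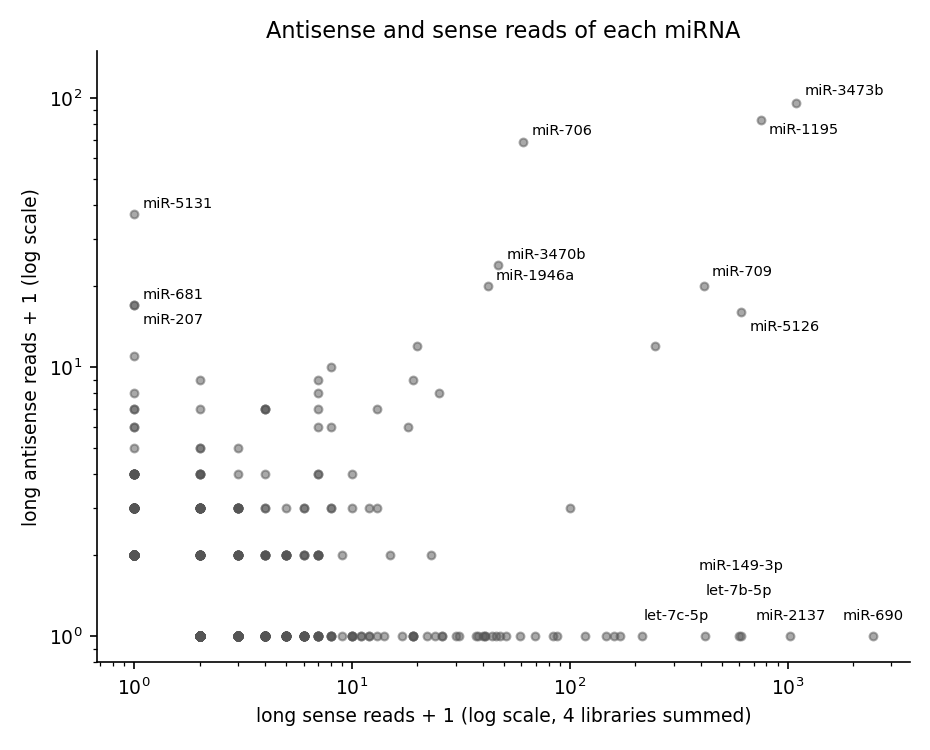
Each point is a miRNA with a long alignment, with long sense reads plus 1 (x axis, log scale) against long antisense reads plus 1 (y axis, log scale), summed over 4 libraries. miR-3473b, miR-1195 and miR-706 stand highest, miR-5131, miR-681 and miR-207 lie at 0 sense reads, and miR-690 and miR-2137 lie at 0 antisense reads.

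Several miRNAs had uneven counts between genotypes, and none passed the adjusted threshold. miR-207 had 9, 7, 0 and 0 reads and miR-709 had 17, 2, 0 and 0, so their long antisense reads were all in the WT libraries, and the counts of 0 in the miR-379KO libraries allow up to 4.74 and 4.63 reads per 10000. miR-709 had 40 and 48 long sense reads in the miR-379KO libraries. miR-5131 had 8, 1, 11 and 16 reads and was lower in WT by 2.66 ± 0.81 on the log2 scale (edgeR quasi-likelihood, adjusted p = 0.79). miR-681 had 4, 2, 7 and 3 reads. In the edgeR quasi-likelihood test over 627 miRNA features, each miRNA split into long antisense and all other reads, 0 of the 13 long antisense rows with at least 10 reads passed an adjusted p of 0.05, beside a background of 0% of all features. At an unadjusted p under 0.05 it was 3 of 13 (miR-5131, lower in WT, and miR-207 and miR-709, higher in WT), beside a background of 1.75% of features higher and 2.55% lower in WT. DESeq2 called 0 after adjustment and 2 at an unadjusted p under 0.05. At that unadjusted threshold edgeR gave 3 of 13 with the replicate block or with library totals in place of TMM. It gave 3 of 246 with no minimum count, 3 of 11 with each distinct sequence once and 3 of 9 with a single miRNA and gene. With a minimum of 20 nt it gave 0 of 3.

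**Figure D3:**
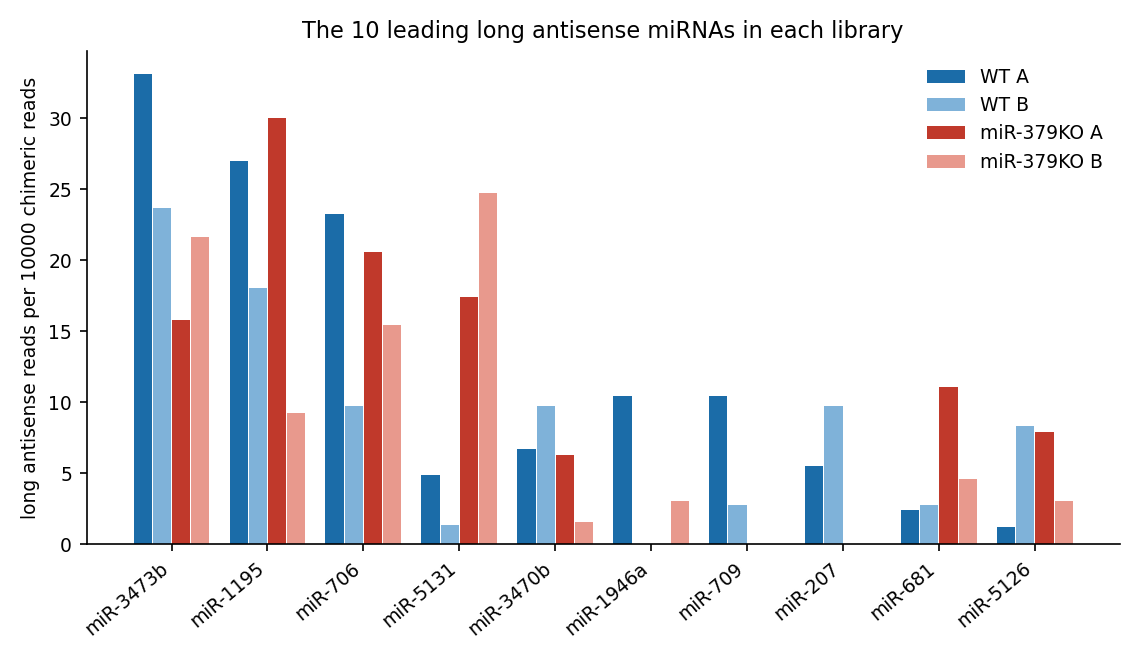
Long antisense reads per 10000 chimeric reads (y axis) of the 10 leading miRNAs (x axis), 1 bar for each library. miR-207 and miR-709 have no bar in the miR-379KO libraries, miR-5131 is higher in both miR-379KO libraries, and miR-1946a has a bar in WT A and miR-379KO B only.

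Ribosomal RNA led the target genes. Rn18s-rs5, an 18S ribosomal RNA gene, had 134, 33, 34 and 31 long antisense reads, 27.2% of the class, with 83 miRNAs. It was also listed for 714 of 11052 long sense reads and for 6993 of all 36318 chimeric reads. Rn18s-rs5 held 14.5% of the members that matched without mismatch or gap. The 52 reads of AY036118 were all listed with Rn18s-rs5 too, whereas none of the 27 of Gm42418 was, and both genes are on the list of ribosomal RNA-like genes. Ribosomal RNA-like genes were listed for 32.04% of long antisense and 27.1% of long sense reads. In WT A the order was 31.7% against 17.6%, and in WT B it was 32.3% against 37.0%. Every one of the 232 Rn18s-rs5 reads was antisense to the listed transcript, and so were 714 of 714 long sense reads and 6992 of all 6993 chimeric reads with that target.

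Among other targets, Ncbp3, a nuclear cap-binding protein gene, had 30 reads, all on the sense strand, with miR-3473b or miR-3473a. Mtg2, a mitochondrial ribosome GTPase gene, had 16 reads, of which 9 were distinct when counted once per library, all with the miR-681 segment. Ap4e1, an adaptor complex subunit gene, had 11 reads, all with miR-1195. Over all chimeric reads, Ncbp3, Mtg2 and Ap4e1 had 1122, 19 and 26, and over long sense reads they had 1024, 1 and 11. Gm12895 and Gm12896 shared 10 reads, as did the U3 small nucleolar RNA genes Rnu3b1 to Rnu3b4, whose reads are listed under each copy and cannot be assigned to one of them. Of the 609 genes, 451 had 1 read and 7 were present in all 4 libraries. In the edgeR test over 682 gene features, 0 of 12 long antisense rows passed after adjustment (background 0%), 6 did at an unadjusted p under 0.05 (the 4 U3 copies, with 8, 2, 0 and 0 reads, and Gm12895 and Gm12896, with 2, 0, 5 and 3), beside 2.49% of features higher and 2.05% lower in WT. DESeq2 gave 0 at both thresholds. At the unadjusted threshold edgeR also gave 0 with the replicate block and with each distinct sequence once. It gave 0 with a single miRNA and gene and with a minimum of 20 nt. These tests held 2 to 12 long antisense rows. With library totals in place of TMM edgeR still gave 6 of 12, and with no minimum count 5 of 609.

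The target strand differed between the classes in every library. The target was antisense to the listed transcript in 66.7%, 55.6%, 54.7% and 52.5% of long antisense reads and in 7.57%, 8.81%, 8.86% and 7.54% of long sense reads. The means were 57.4% ± 6.33 and 8.20% ± 0.74 (SD, n = 4 libraries) and did not overlap. Without the ribosomal RNA-like genes, the difference remained: 45.3% ± 7.71 against 2.51% ± 0.53, and over the 4 libraries together 290 of 579 such reads, 50.1%, had an antisense target. The exact paired permutation test over libraries gave p = 0.125, the smallest that 4 libraries allow, so no such comparison can pass 0.05. The adjusted p was 0.133 (Benjamini-Hochberg over 16 comparisons), and the direction was the same in 4 of 4 libraries. The 16 comparisons covered the target strand, segment order, spacing, read end, exact match, seed, energies, flanked genome match, single intron place and whole reads. All had these p-values and 4 of 4 libraries in 1 direction except the energy of antisense targets, given below. Other values of long sense reads are given as a description, with no test. With the long sense reads weighted to the alignment lengths of the long antisense reads of each library, the difference in target strand was 42.0 points.

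The miRNA segment came first in the read in 55.5% ± 4.29 of long antisense reads and in 48.05% ± 2.01 of long sense reads (SD, n = 4 libraries), with the same direction in 4 of 4 libraries. The gap of 7.50 points on average was 1.14 points without ribosomal RNA-like targets (exact permutation p = 1) and 20.9 points at matched alignment lengths. Without those targets the order was turned in WT B, with 50% against 58.4%, and in miR-379KO A, with 51.1% against 53.7%. The 2 segments were at most 4 nt apart in 27.7% of long antisense and 53.9% of long sense reads. The miRNA segment lay within 3 nt of a read end in 12.2% against 67.7%. Long antisense reads were also longer, with a median of 119.5 nt against 98 nt. The miRNA segment matched without mismatch or gap in 17.8% against 69.9%. At matched alignment lengths the differences in spacing, read end and exact match were smaller, at -7.53, -27.3 and -34.2 points, against -26.2, -55.5 and -52.1 points without matching. The complement of miRNA positions 2 to 7 was present in the target part of 18.2% of long antisense and 39.5% of long sense reads. With the target turned to the transcript strand the values were 38.0% and 41.8%, and this smaller difference changed sign under several alternatives.

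The deposited pair energies were lower for long antisense reads, with per-library medians of -25.2, -25.8, -26.5 and -28.4 kcal/mol against -24.6, -24.7, -24.6 and -23.5 for long sense reads. The deposited alignment takes the mature miRNA and the transcript strand rather than the bases in the read. For sense targets, the aligned target shared a 10-nt word with the read in 247 of 279 distinct reads, and for antisense targets it shared one with the reverse complement of the read in 419 of 459. RNAduplex on the bases as they stood in the read gave the opposite order, with medians of -15.6, -16.2, -16.1 and -16.0 kcal/mol for long antisense and -24.8, -24.8, -24.8 and -23.2 for long sense reads. Where the target was sense, the mean was -10.5 ± 0.33 against -24.4 ± 0.80 kcal/mol. Where it was antisense, as in 459 of the 738 distinct members, the mean was -19.4 ± 1.10 against -21.9 ± 2.66 kcal/mol. This last difference had the same direction in 3 of 4 libraries (exact paired permutation test, p = 0.25, adjusted p = 0.25), was turned in miR-379KO B, with -20.3 against -18.75 kcal/mol, and reversed under 3 alternatives. The miRNA segments had medians of 17 and 21 nt and the target segments 49 and 51 nt, and the part of segment length in the energies was not tested.

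**Figure D4:**
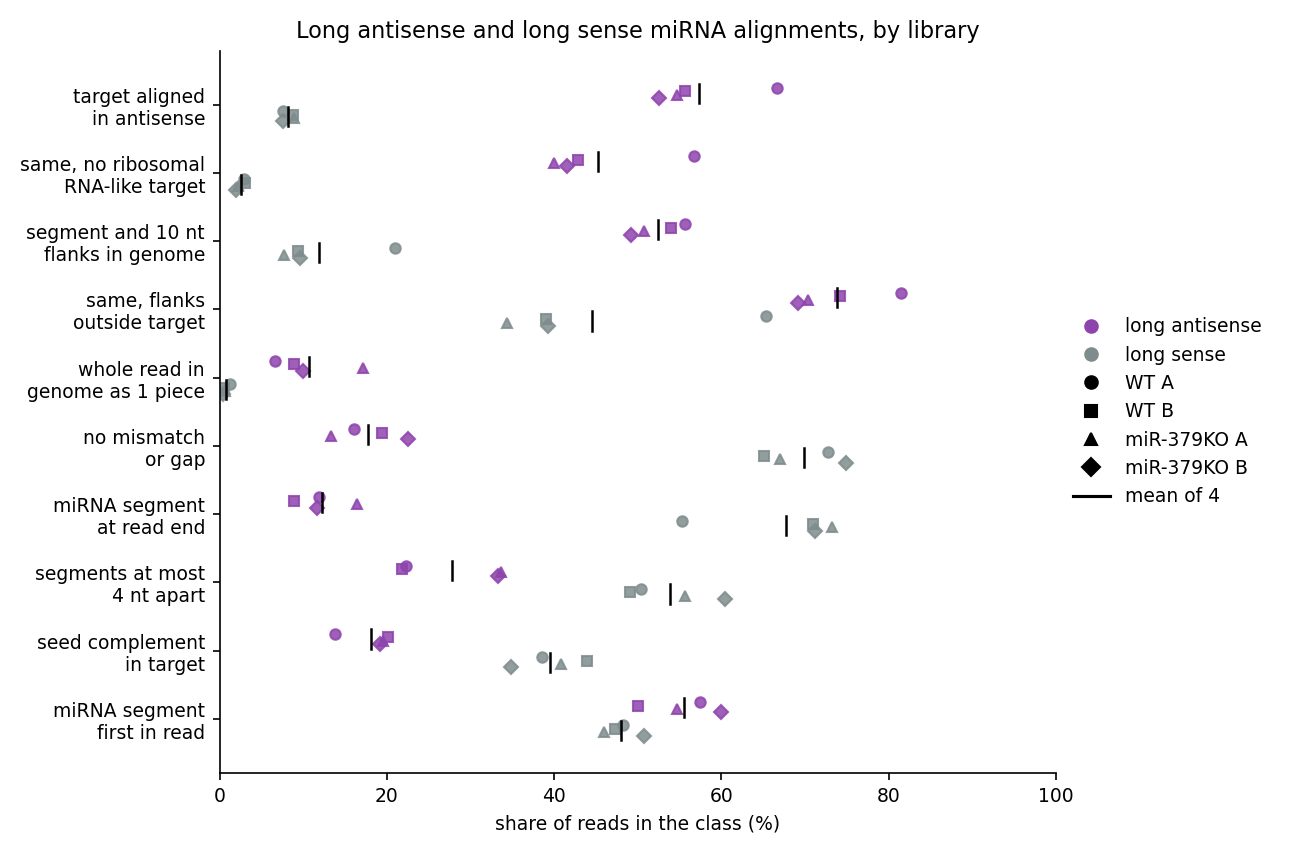
Share of reads (x axis, percent) with each property (rows) in long antisense (purple) and long sense (grey) reads, with 1 symbol for each library and a bar at the mean of 4. Antisense targets and genome matches of the flanked segment outside miRNA genes are more frequent in long antisense reads in every library. Exact miRNA matches and segments at a read end are less frequent.

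Long antisense segments with flanks matched the genome outside miRNA genes more often than long sense segments did. Matches in miRNA genes were left out, and 15.2% of long sense and 0 long antisense reads matched miRNA genes alone. Flanks of 10 nt also ran into the target in reads whose segments lay close, and these were more frequent among long sense reads. The part of the left-out matches in the difference was not tested. The segment with 10 nt on each side matched the genome whole, outside miRNA genes, in 55.6%, 54.0%, 50.8% and 49.2% of long antisense reads and in 20.9%, 9.41%, 7.68% and 9.55% of long sense reads. With flanks that stop at the target segment, the shares were 73.8% ± 5.55 and 44.5% ± 14.1. The long sense share of WT A, 65.4%, was above that of the other 3 libraries, 34.4% to 39.3%. The difference varied with alignment length. At 16 to 17 nt the segment matched in 52.7% of distinct long antisense and 27.1% of distinct long sense reads, at 18 to 19 nt in 52.5% and 46.5%, and at 20 to 23 nt in 58.0% and 2.84%. At 18 nt alone the order was turned, with 54.8% and 57.1%. At matched alignment lengths the mean difference over libraries was 21.7 points, against 40.5 points without matching, and with flanks that stop at the target it was 10.2 against 29.3 points, with the same direction in 4 of 4 libraries. Another miRNA was listed in sense over the same bases in 1, 5, 0 and 1 reads, so few members had a complementary mature miRNA listed there.

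The matched place was mostly on the sense strand of genes other than the target. For 417 long antisense reads, 48.9%, the flanked segment had a single place in the genome, inside a gene of that strand and outside its annotated transcripts, which in the GENCODE vM21 models means an intron. The share was 57.5%, 40.3%, 39.8% and 33.3% by library, against 10.8%, 3.12%, 2.45% and 3.72% of long sense reads. By the same criteria, 9 reads lay in genes of the opposite strand only. Of these 426 reads, 6 had the listed target gene as the gene of the segment. A further 130 reads, 15.3%, matched an annotated transcript in sense and 8, 0.94%, in antisense. No long antisense segment matched miRNA genes alone, whereas 15.2% of long sense reads did, and 21.9% against 36.1% had no exact match. At matched alignment lengths the difference in the single intron place was 25.4 points, against 37.7 points without matching. Where a segment lay in such an intron, long sense reads also lay mostly in genes of the same strand, with 647 reads in genes of the same strand only and 33 in genes of the opposite strand only, beside 404 and 9 for long antisense reads. In miR-379KO A the share on the same strand was 92.2% for long antisense and 92.5% for long sense reads. Most of the matched long antisense reads, 66.9%, lay in sequence masked as repeats for the most part, and 83.7% had 1 place in the genome. For long sense reads the values were 63.9% and 31.9%.

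**Figure D5:**
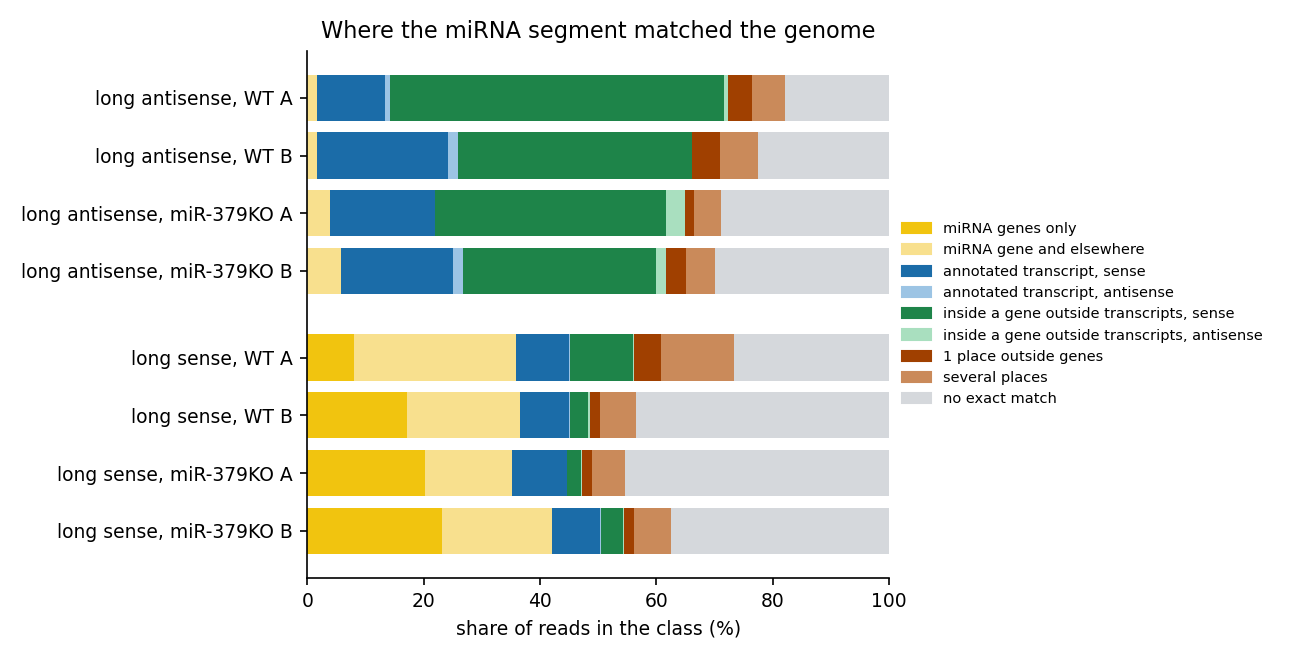
Share of reads (x axis, percent) by the place of the flanked miRNA segment in the genome, for each library and class (rows). The part inside a gene on its own strand but outside transcripts is 33.3% to 57.5% in long antisense and 2.45% to 10.8% in long sense reads.

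Some reads listed as chimeras matched the genome as a single piece. The whole read matched GRCm38 without a mismatch in 57 distinct long antisense reads (77 reads) and in 58 distinct long sense reads (88 reads). This was 6.67%, 8.87%, 17.2% and 10.0% of long antisense reads and 1.19%, 0.51%, 0.66% and 0.44% of long sense reads. The exact paired permutation test gave p = 0.125, with the same direction in 4 of 4 libraries. Of the 57, 54 had 1 place, of which 51 lay in a gene of the same strand, 1 in a gene of the opposite strand only, 2 outside genes and 0 in the gene listed as the target. The study's methods state that merged reads aligned to the genome were removed, and why these remained was not tested.

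Of the 4 sequences with a deposited count of 4, 3 matched the genome whole. A 70-nt read listed as miR-1195 joined to Ap4e1 was counted 4, 1, 4 and 1 times, in all 4 libraries, and lay whole at chr13:101752150-101752219 on the minus strand, in an intron of Pik3r1, a phosphoinositide 3-kinase regulatory subunit gene. The miR-681 reads with Mtg2 lay in an intron of Anxa3, an annexin gene, where the segment is at chr5:96827008-96827025 on the plus strand. One of them, 62 nt long, lay whole at chr5:96826992-96827053 and was counted 4 times in miR-379KO A and 1 time in miR-379KO B. A 63-nt read listed as miR-466k joined to Aoc3 was counted 4 times in WT A and lay whole at chr4:41019883-41019945 on the plus strand, in an intron of Nfx1. The remaining read with a count of 4 was a 108-nt read of WT B listed as miR-6996-3p joined to Rn18s-rs5, whose flanked segment matched a transcript of Dlgap5 in sense.

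Other segments matched single transcripts. Transcripts of Fn1, which encodes the matrix protein fibronectin, held the flanked segment of 16 reads, with 9, 7, 0 and 0 by library, listed as miR-207 or miR-7046-5p. Of the 14 reads with the miR-207 segment shown above, 11 had flanks that matched Fn1 transcripts in sense, between chr1:71627201 and chr1:71627237 on the minus strand, with 7 target genes. Malat1, a nuclear long noncoding RNA, held that of 7 reads, and Thbs1, which encodes a thrombospondin of the matrix, that of 6. In 5 of the 6 distinct Thbs1 reads, Thbs1 was the target too.

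The miR-5131 segment stood apart. It was in 34 reads, 32 of them distinct, with 7, 0, 11 and 16 by library, and had 0 exact matches in GRCm38.p6, the only assembly searched. Its targets were Rn18s-rs5 and Gm42418 only. By contrast, the exact complements of miR-3473b and of 16 nt of miR-706 had 25172 and 80083 matches. All matches of miR-3473b, and all 21410 of the full miR-706 sequence, lay for the most part in masked repeats. The miR-3473b segment was found in 27 reads, in all 4 libraries with 12, 8, 2 and 5, and the miR-706 segment in 20 with 7, 2, 4 and 7.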

How the data were processed

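The authors merged read pairs, removed those that aligned to GRCm38.p5 or GENCODE vM13 transcripts (Bowtie2 2.1.0 per the labels) and searched the rest with blastn on both strands for miRNAs and mRNAs. The deposited tables list each read with its count, positions, alignment score and pair energy. Here 1 line per read was kept (longest miRNA alignment, then lowest energy), weighted by the deposited read count. Segments were matched exactly to GRCm38.p6 and GENCODE vM21 transcripts. Genotypes were compared with edgeR 4.0.16 (features with at least 10 reads, TMM, Benjamini-Hochberg) and classes with exact sign-flip permutation tests within libraries. Energies were computed with RNAduplex (ViennaRNA 2.7.2). Scripts were tested on simulated data, in which the share of changed features that edgeR recovered varied widely between draws. Named items are the 10 miRNAs and 10 genes with the most reads, the 5 reads with the highest count and fixed lists; Anxa3, Fn1, Malat1, Thbs1, Nfx1, Pik3r1 and Dlgap5 were named after their values were seen. Members and lists were chosen with earlier results of these data known. The measures of exact match, spacing, read end, flanks outside the target, whole reads, origin, transcript orientation and RNAduplex, the settings without ribosomal RNA-like targets and at matched alignment lengths, and the shares of named items under the alternatives were added after seeing the data.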

Additional observations from a re-analysis of the deposited data

How the results depend on the processing

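The difference in share between genotypes reversed without WT A, to -21.4 reads per 10000, and leaving out each library gave -21.4 to 100.2 per 10000. With the library letter as a replicate block the WT excess was 39.4 per 10000 (exact permutation p = 1). Same-letter libraries did not deviate together (correlation -0.05 for miRNA features and -0.06 for gene features), so the letters are not shown to pair the samples. The block left 0 long antisense miRNAs and 0 target genes called, as did every other edgeR alternative and DESeq2. For antisense targets, the difference in RNAduplex energy as read, 2.55 kcal/mol in the main setting, reversed to -6.00 at a minimum of 18 nt, to -9.30 without mismatch or gap and to -4.64 with a single miRNA and gene. The seed difference in transcript orientation, -3.81 points, reversed to 3.78 at a minimum of 20 nt, to 1.10 with each sequence once, to 14.1 without mismatch or gap and to 1.38 without ribosomal RNA-like targets. The cause was not tested. The means of the other class differences over libraries kept their direction under all alternatives run, that of the target strand at 42.0 to 62.9 points, that of the flanked genome match at 21.7 (matched alignment lengths) to 55.0 and that of whole reads at 1.79 (minimum of 20 nt) to 14.7. That of read order was 1.14 (without ribosomal RNA-like targets) to 20.9 points (matched alignment lengths). Of 200 shares of the named miRNAs and genes in the class under the alternatives, 30 moved by more than the SD over libraries, and 15 of these were at a minimum of 18 or 20 nt. Leaving out 1 library moved the shares of 13 of the 20 named miRNAs and genes by over 1.5 times, 11 of them without WT A. Without WT A, miR-709 and miR-1946a each held 0.54% against 2.23%, miR-5126 3.49% against 1.76%, miR-681 and Mtg2 3.23% against 1.88%, Ncbp3 5.38% against 3.52%, Gm12895 and Gm12896 2.15% and Rnu3b1 and Rnu3b2 0.54% against 1.17%. Without miR-379KO A, miR-681 and Mtg2 held 1.24%, Ap4e1 0.83% against 1.29%, and Gm12895 and Gm12896 0.69%. Without WT B, miR-207 held 1.24% against 1.88%. AY036118 held 0 with a single miRNA and gene. Of 246 miRNAs and 609 target genes, 13 and 12 had the 10 long antisense reads the edgeR test required. With no minimum count all 246 and 609 were tested and 0 were called.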
